A study of Rattus norvegicus with 2 samples.

Results

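Postn-positive fibroblasts of the rat carotid artery were selected on their counts in single-cell RNA sequencing data of 1 library of normal left arteries (control group) and 1 library of balloon-injured right arteries (case group). A cell barcode was taken as a fibroblast when it held at least 2000 UMIs (unique molecular identifiers, each counting 1 captured RNA molecule), at most 20% of them from mitochondrial genes, at least 1.5% from the fibroblast genes Col1a1, Col3a1, Dcn and Lum, under 0.5% from 6 contractile genes of vascular smooth muscle cells (VSMCs) and under 0.35% from Gfpt2, a hexosamine pathway gene that marks other fibroblasts of this tissue. Of these fibroblasts, those with at least 2 Postn UMIs were the Postn-positive cells. There were 139 of them, 11 in the control library and 128 in the case library, among 1494 gated fibroblasts, 6658 barcodes that passed the UMI and mitochondrial limits and 8977 barcodes in all. They were compared with the Postn-zero fibroblasts of the same gate and library, 504 control and 768 case cells, and Postn itself was left out of that comparison. The cells with exactly 1 Postn UMI, 32 in the control and 51 in the case library, belonged to neither class.

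Both libraries came from the same 2 male Sprague-Dawley rats, whose arteries were pooled, so the left artery of the same animal served as control. The right carotid artery had been injured with a balloon catheter 28 days before, a model of restenosis in which the inner wall is scraped and a neointima grows. The labels give an age of 12 weeks, and the methods give 8 weeks for the animals used. With collection 28 days after the injury these 2 ages need not conflict. No animal can be followed within a pool, and with 1 library per group the injury cannot be told apart from the library, so no difference below has a replicate check and no p-value is given. Intervals are exact 95% intervals that cover counting error only.

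Periostin, the product of Postn, is a secreted matricellular protein that binds integrins and collagen and helps to cross-link collagen fibrils. It is best known from fibroblasts activated by injury in heart, skin and vessel wall, where it is used as a mark of matrix-building cells, but smooth muscle cells can make it too. The adventitia, the outer coat of an artery, also holds fibroblasts marked by Pi16, a secreted peptidase inhibitor, which are regarded as a resting, progenitor-like state.

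The sequences before the start sites are shown for Postn, which chose the cells, for Fndc1, a leading gene of these cells in the case library, and for Cilp, the matrix gene proposed as a second mark. They are the 250 bases before the start in RefSeq, build GRCr8, plus strand, at chr2:140677811-140678060 for Postn, chr1:49686606-49686855 for the first of 2 Fndc1 entries and chr8:74672198-74672447 for Cilp, while the counts were made on Rnor_6.0. Capitals mark the motif TATAAA.
Postn promoter: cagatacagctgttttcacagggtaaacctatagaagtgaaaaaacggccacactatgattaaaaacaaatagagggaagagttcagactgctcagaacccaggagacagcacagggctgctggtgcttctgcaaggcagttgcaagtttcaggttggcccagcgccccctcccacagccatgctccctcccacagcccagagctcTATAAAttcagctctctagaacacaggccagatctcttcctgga
Fndc1 promoter: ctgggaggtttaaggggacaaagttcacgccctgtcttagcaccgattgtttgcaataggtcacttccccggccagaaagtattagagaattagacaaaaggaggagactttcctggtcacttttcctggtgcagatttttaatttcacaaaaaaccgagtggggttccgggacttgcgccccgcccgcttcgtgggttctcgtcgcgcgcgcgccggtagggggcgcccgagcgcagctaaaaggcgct
Cilp promoter: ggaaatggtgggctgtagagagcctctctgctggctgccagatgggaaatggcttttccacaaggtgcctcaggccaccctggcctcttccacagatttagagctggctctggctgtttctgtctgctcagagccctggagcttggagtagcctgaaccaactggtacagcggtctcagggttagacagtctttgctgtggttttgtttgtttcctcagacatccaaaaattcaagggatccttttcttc
TATAAA and CCAAT were searched on both strands, from 250 bases before to 50 after the start. TATAAA was found 44 bases before the start of Postn, on the gene's strand, and in no entry of Fndc1, Cilp or Apoe. Of 33469 promoters of the same length, 14.2% held TATAAA and 37.5% held CCAAT on either strand. CCAAT was found on the other strand in 2 of the 3 Apoe entries and in none of Postn, Fndc1 or Cilp. Of the 7 genes looked up, Thbs2, Col1a1 and Dkk2 were not matched.

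The first question was how much Postn each library held and in which cells. In the control library 11 of 547 gated fibroblasts had at least 2 Postn UMIs, a share of 2.01% (1.01 to 3.57%, Clopper-Pearson). In the case library 128 of 947 did, a share of 13.5% (11.4 to 15.9%). The difference was 11.5 percentage points (8.95 to 13.99, Newcombe), which says how far these 2 libraries differ and nothing about other animals. The control cells were deeper, with a median of 10659 UMIs in Postn-zero cells against 5080 in the case library, so the libraries were not equal in depth. With every cell thinned to 2000 UMIs and 1 Postn UMI asked for, the shares were 2.74% and 13.3%. With 1 Postn UMI asked for in unthinned cells they were 7.86% and 18.9%, and without Pi16 cells 4.92% and 24.4%. With fibroblast genes at 3% or more they were 0.735% and 15.3%.

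Summed over all gated fibroblasts, Postn was at 14.6 CPM (counts per 1000000 UMIs, 11.8 to 18.0, exact Poisson) in the control and 289 CPM (275 to 304) in the case library. The selected cells held 64.4% of the fibroblasts' Postn UMIs in the control and 96.7% in the case library. Among the 128 case cells the count ran from 2 to 76 Postn UMIs with a median of 6, and 24 cells sat exactly at the limit of 2. Among the 11 control cells it ran from 2 to 13 with a median of 4, and 4 cells sat at the limit. These counts chose the cells and are given as a description.

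**Figure D1:**
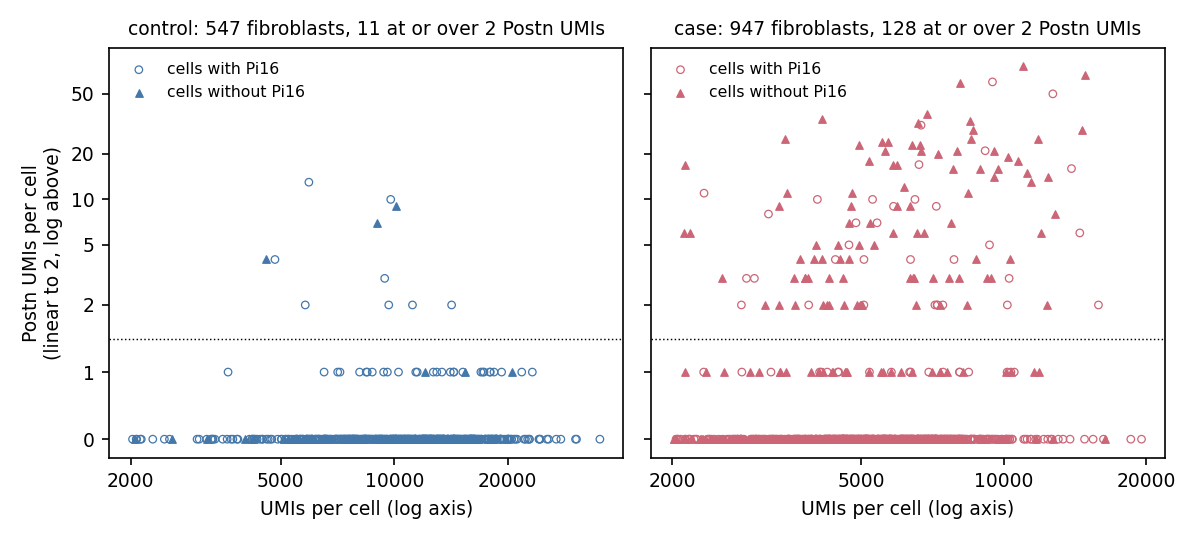
Postn UMIs of each gated fibroblast (vertical axis, linear to 2 and logarithmic above) against all UMIs of the cell (logarithmic axis), in the control library (left) and the case library (right); circles are cells with Pi16 and triangles cells without. Above the dotted line lie the 11 control and 128 case cells, and counts over 13 occur only in the case library.

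Barcodes outside the gate gave a background for these values. Postn was at 11.1 CPM in 51 control and 3.36 CPM in 110 case barcodes with macrophage markers, and none of these barcodes had 2 Postn UMIs (upper bounds of 6.98% and 3.30%), at median depths of 8768 and 4976.5 UMIs. Barcodes with endothelial markers held 14.3 CPM in the control and 24.2 CPM in the case library, and 0 of 54 and 3 of 203 reached 2 UMIs. The control fibroblasts, at 14.6 CPM, therefore lay slightly above both classes of the control library, with overlapping intervals, whereas the case fibroblasts lay far above all of these classes.

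Barcodes rich in VSMC genes also carried Postn, at nearly the same level in both libraries. Their sum was 185 CPM (176 to 194) in 685 control and 181 CPM (171 to 191) in 1116 case barcodes, and after thinning 20.7% and 21.5% had a Postn UMI. The level of the case fibroblasts was thus above that of the VSMC-marker barcodes, and the level of the control fibroblasts was below it. Fibroblasts left out for high Gfpt2 were at 16.01 CPM in 120 control and 331 CPM in 227 case barcodes. The limits of these marker classes were chosen after seeing the data.

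**Figure D2:**
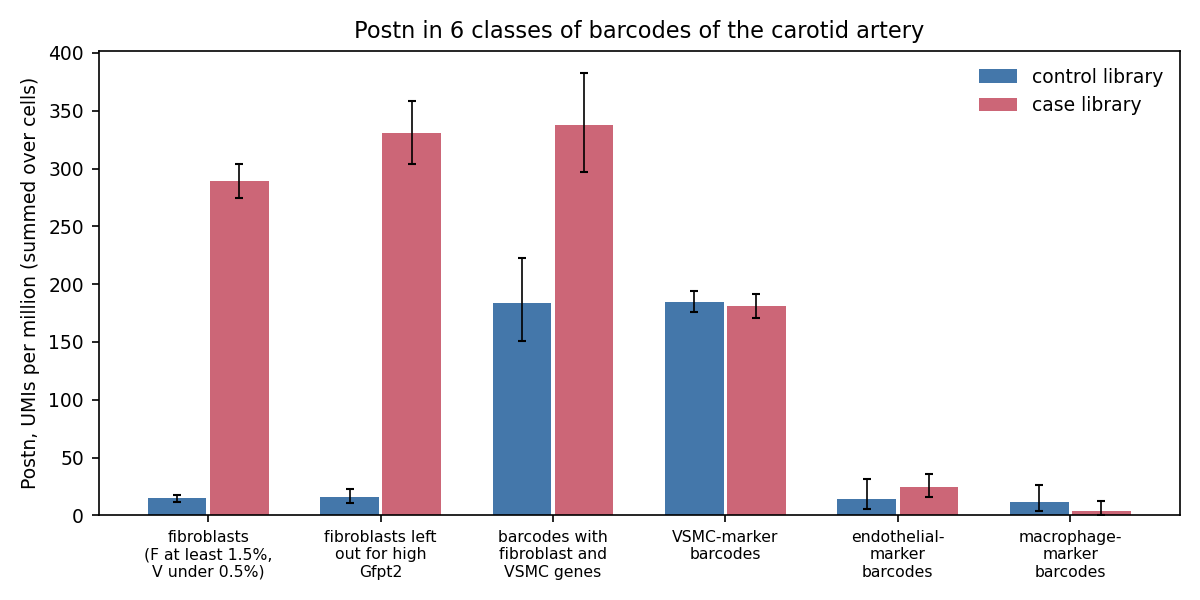
Postn level in counts per 1000000 UMIs, summed over the barcodes of 6 classes, in the control and the case library; bars are sums and whiskers exact Poisson intervals (counting error only). The gated fibroblasts stand at 14.6 and 289, those left out for Gfpt2 at 16.01 and 331, barcodes with fibroblast and VSMC genes at 184 and 338, and VSMC-marker barcodes at 185 and 181.

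The label of these cells was checked against Cilp, Thbs2 and Col1a1. In the case library Thbs2, which encodes thrombospondin 2, was at 256 CPM (224 to 292) in Postn-positive and 119 CPM (109 to 130) in Postn-zero fibroblasts, and Cilp, a cartilage matrix protein also made by activated fibroblasts, at 185 CPM and 120 CPM. Cilp was found in 32 of the 128 cells. Without the UMIs of the cell that held most of it, its log2 ratio was 0.36 in place of 0.63. In this and later ratios without a gene's richest cell, only that cell's UMIs of the gene were taken out. The UMI total still held the cell, which lowers such a ratio by construction. Col1a1, which was part of the gate, was at 18520 CPM against 16554 CPM. In the 11 control cells neither Cilp nor Thbs2 had a UMI, for which the exact upper limit is 39.1 CPM (the 3 counts used in ratios are 31.8 CPM). Col1a1 was at 6669 CPM against 19998 CPM in Postn-zero cells. Each of the 11 cells held at least 5 Col1a1 UMIs. Cilp and Thbs2 were also low in Postn-zero control cells, at 17.6 CPM and 44.7 CPM, so a level of Cilp like that of Postn-zero cells was not detectable at this depth, while the bound for Thbs2 lies below theirs. The label held only in part in the case library too. Cilp was at 57.2 CPM in the 37 cells with 16 or more Postn UMIs, below the Postn-zero cells. Among cells without Pi16, 94 of the 128, Cilp was at 198 CPM (165 to 237) against 205 CPM (181 to 232) and Thbs2 at 243 CPM (206 to 285) against 241 CPM (214 to 269) in Postn-zero cells without Pi16. The cells are therefore called by their rule, Postn-positive, and the control cells are described separately.

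Markers of other cell types were low in the case cells. The 8 macrophage markers summed to 12.8 CPM in Postn-positive and 69.5 CPM in Postn-zero cells, with Cd68 the most abundant and 3 of the markers at 0. The 3 T cell markers had no UMI. The 7 endothelial markers summed to 40.8 CPM against 23.4 CPM, led by Tek at 17.5 CPM. The 6 VSMC markers, which the gate limited, summed to 882 CPM and 849 CPM. The 6 Schwann cell markers summed to 96.7 CPM against 116 CPM, nearly all of it S100b. The 4 pericyte markers summed to 172 CPM against 268 CPM, nearly all of it Abcc9, the 4 perineurial markers to 52.4 CPM against 61.3 CPM, and the 4 mesothelial markers to 1.16 CPM against 0.473 CPM. The 8 fibroblast markers summed to 59071 CPM against 50792 CPM. Scrublet called none of the Postn-positive cells a doublet, but it marked only 0.0644% of the case and 0.600% of the control barcodes, so doublets cannot be taken as searched.

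The second question was what else distinguished Postn-positive from Postn-zero fibroblasts of the injured artery. Of 2274 genes that averaged 50 CPM or more over both classes, 150 (6.6%) were at least 1.5-fold higher and 184 (8.09%) at least 1.5-fold lower in the Postn-positive cells. The median depth was 6345.5 UMIs in these cells and 5080 in Postn-zero cells, and the median log2 ratio over all tested genes was 0.05. Since the limit is on the mean, a gene under 50 CPM in one class passed only through the other, as Lpl, Cxcl9, Igfbp3, Dkk2, Ssc5d, Hmcn1, Col5a3, C4b, Has2, Msx1 and Fst did, and their presence among the tested genes is no support for a difference. The leading genes were Lpl, Cxcl9, Igfbp3, Fndc1 and Dkk2, and the genes with the lowest ratios included Apod, genes of the major urinary protein family, Alpl, Gdf10 and Bmp4.

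Lpl, which encodes the lipoprotein lipase that frees fatty acids from triglyceride, was at 209 CPM (179 to 241) against 14.4 CPM (11.0 to 18.5), 14.5-fold higher, and was found in 63 of 128 Postn-positive cells against 4.17% of Postn-zero cells. Fndc1, a fibronectin type III domain protein, was at 574 CPM (525 to 627) against 86.6 CPM (77.9 to 95.9) and was found in 98 of the 128 cells. At an equal 2000 UMIs per cell, Fndc1 was detected in 52.3% (43.3 to 61.2%) of Postn-positive and 11.2% (9.06 to 13.6%) of Postn-zero cells, and Lpl in 26.6% and 2.21%. Apoe, the apolipoprotein that carries cholesterol, was at 1202 CPM (1130 to 1278) against 348 CPM (331 to 367). None of these 3 sums rested on 1 cell, since the richest cell held at most 8.38% of them.

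Secreted signals were among the other leading genes. Cxcl9, an interferon-induced T cell chemokine, was at 196 CPM against 24.6 CPM, and Igfbp3, which binds insulin-like growth factors, at 175 CPM against 26.3 CPM. The Wnt antagonist Dkk2 was at 87.4 CPM against 14.2 CPM, and Tnfrsf11b, the osteoprotegerin decoy receptor that restrains bone resorption, at 195 CPM against 57.9 CPM. C4b, a component of the complement cascade, was at 112 CPM against 25.1 CPM. The surface and pericellular genes were Has2, which synthesises hyaluronan, at 127 CPM against 32.2 CPM, Prg4, the joint lubricant lubricin, at 227 CPM against 61.5 CPM, Hmcn1, a basement membrane fibulin, at 92.0 CPM against 16.8 CPM, and Col5a3, a chain of type V collagen, at 247 CPM against 48.0 CPM. Ssc5d, a soluble scavenger receptor, was at 111 CPM against 19.6 CPM, the homeobox factor Msx1 at 129 CPM against 32.9 CPM and the membrane protein gene Itm2a at 395 CPM against 96.0 CPM. All 15 leading genes had a log2 ratio of at least 1.53 without the cell that held most of their UMIs. They were ranked by this ratio in the same cells, so this describes how their UMIs were spread over cells. It is no support for a difference.

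**Figure D3:**
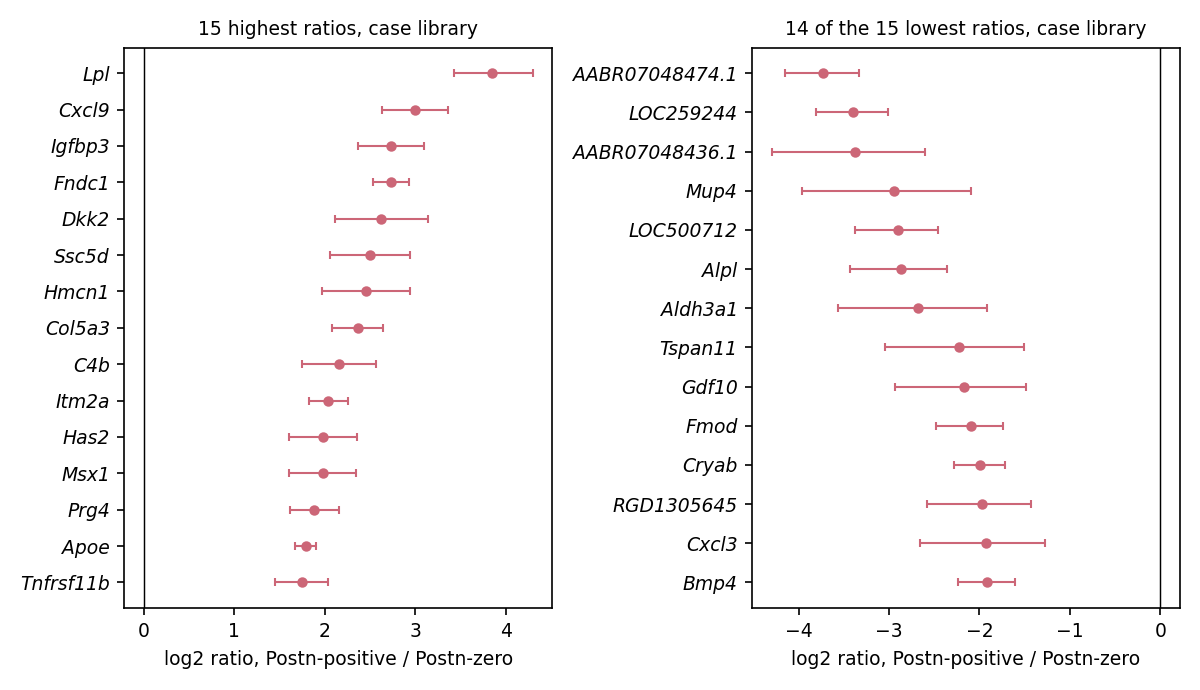
Log2 ratio of summed counts per 1000000 UMIs in Postn-positive (128 cells) over Postn-zero (768 cells) fibroblasts of the case library, for the 15 genes with the highest and 14 of the 15 with the lowest ratios among genes averaging 50 CPM or more; whiskers are exact intervals for counting error. Lpl leads at 3.85, and Apod, at -7.86 and found in 1 Postn-positive cell, is not drawn. The genes were chosen by this ratio, and several on the left passed the limit of 50 CPM only through the Postn-positive cells. That every whisker on the left ends above 0 and every whisker on the right below 0 is therefore no support for a difference.

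Collagen genes made up the list with the highest median. Of 14 tested fibrillar and network collagens 10 were at least 1.5-fold higher and 1 was lower, with a median log2 ratio of 0.74, beside 6.6% higher, 8.09% lower and a median of 0.05 over all genes tested. The gate genes Col1a1 and Col3a1 are among them, and the collagen gene Col5a3 passed the limit of 50 CPM only through the Postn-positive cells. These genes are no support for a difference, and no count without them is given. Col3a1, a gate gene for type III collagen, was at 27623 CPM (27273 to 27977) against 17441 CPM, Col12a1, which coats fibrils, at 157 CPM against 59.4 CPM, and Col4a1, of basement membranes, at 457 CPM against 187 CPM. Col6a2 was at 1052 CPM against 581 CPM, while Col15a1 was the lower gene, at 200 CPM against 310 CPM. Col1a1 lay between, at a log2 ratio of 0.16. Of the genes that process and fold collagen, 0 of 14 collagen processing genes and 0 of 16 endoplasmic reticulum folding genes passed 1.5-fold in either direction (medians 0.06 and -0.01), which is near the 6.6% and 8.09% over all genes.

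Other matrix lists held genes of both directions, beside 6.6% higher and 8.09% lower over all genes. Of 15 matricellular genes 4 were higher and 3 lower (median -0.02), with Fn1, the fibronectin gene, at 2495 CPM against 1049 CPM and Sparcl1, an adhesion-modulating relative of Sparc, at 958 CPM against 1753 CPM. Of 9 proteoglycan genes 4 were higher and 2 lower (median -0.21). Versican, from Vcan, was at 606 CPM against 376 CPM, and the fibril-binding Ogn at 3837 CPM against 6870 CPM and Fmod at 76.9 CPM against 329 CPM. Dcn, a gate gene, was at 8897 CPM against 13115 CPM. Of 13 elastic fibre genes 5 were higher and 4 lower (median 0.04). The higher ones included the microfibril genes Mfap2 at 193 CPM against 74.7 CPM and Fbn1 at 1460 CPM against 829 CPM, whereas Eln, the elastin gene itself, was at 464 CPM against 1225 CPM and the elastin-binding Fbln5 at 103 CPM against 215 CPM.

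Growth factor signalling lists differed. Of 16 tested genes of TGF-beta and BMP signalling 1 was higher and 8 were lower (median -0.56), beside 6.6% higher and 8.09% lower over all genes tested. Bmp4, a BMP ligand, was at 103 CPM (82.2 to 126) against 387 CPM (368 to 406), Gdf10 at 21.0 CPM against 94.1 CPM, and Id3, a target of the pathway, at 241 CPM against 451 CPM. The higher gene was Fst, follistatin, which traps activins, at 83.9 CPM against 29.3 CPM. Fst passed the limit of 50 CPM only through the Postn-positive cells and Gdf10 only through the Postn-zero cells. Neither is support for a difference. In the Wnt list of 7 genes 2 were higher and 1 lower, with the antagonist Sfrp4 at 468 CPM against 215 CPM and Sfrp2 at 220 CPM against 366 CPM. In the IGF list of 8 genes 2 were higher and 2 lower. The growth factor Igf1 was at 953 CPM against 474 CPM, and the binding protein Igfbp4 at 398 CPM against 945 CPM. Of 4 tested genes in a list of PDGF, FGF, VEGF and angiopoietin-like factors and receptors, Angptl1, an angiopoietin-like factor, was higher, at 624 CPM against 368 CPM, and the PDGF receptor gene Pdgfrb lower, at 146 CPM against 249 CPM. In these 3 smaller lists 1 or 2 genes passed 1.5-fold each way. Dkk2, counted as higher in the Wnt list, and Igfbp3, in the IGF list, passed the limit of 50 CPM only through the Postn-positive cells. Their place among the higher genes is no support, and no count without them is given.

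In the activated fibroblast and myofibroblast list 1 of 13 genes was higher and 1 lower, with a median of -0.05, which is near the 6.6% and 8.09% over all genes. Itga8, an integrin chain, was the higher gene and Itgbl1 the lower. Acta2, the contractile actin of myofibroblasts and 1 of the genes the gate limited, was at 43.1 CPM against 39.0 CPM with overlapping intervals (30.3 to 59.4 and 33.3 to 45.4). Of 9 integrins and matrix receptors 3 were higher and 1 lower, led by the hyaluronan receptor Cd44 in level at 757 CPM against 472 CPM. Of 17 proteases and inhibitors 2 were higher and 4 lower, with Adamts12 at 143 CPM against 63.1 CPM and Timp1 at 388 CPM against 641 CPM. Of 4 tested cell cycle genes 0 were higher and 1, the inhibitor Cdkn1a, was lower, at 146 CPM against 269 CPM. Of 3 tested tendon, cartilage and bone genes 0 were higher and 2 lower. The lower of these in ratio, Alpl, rested on 4 cells, of which 1 held 90.3% of the UMIs.

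Inflammatory genes went both ways (over all genes tested, 6.6% were higher and 8.09% lower). Of 11 chemokines and cytokines 3 were higher and 2 lower. Beside Cxcl9, Cxcl12, the retention signal for blood cells, was at 116 CPM against 64.8 CPM, and the third, Il1rl1, was found in 9 cells and had a log2 ratio of 0.22 without the richest. Il6 was at 144 CPM (120 to 172) against 472 CPM (451 to 493), and the neutrophil chemokine Cxcl1 at 799 CPM against 1576 CPM, though Cxcl1 was detected at 2000 UMIs in 39.1% and 37.1% of cells. Il6 was detected in 32.03% of Postn-positive and 33.1% of Postn-zero cells as sequenced, and at 2000 UMIs per cell in 15.6% (9.81 to 23.1%) and 24.3% (21.4 to 27.5%). Of 9 complement genes 2 were higher and 1 lower. Cxcl9 and C4b, counted as higher in their lists, passed the limit of 50 CPM only through the Postn-positive cells. Their place among the higher genes is no support, and no count without them is given. Immediate early genes, which respond to stimuli and to tissue dissociation, held 0 higher and 8 lower of 20 (median -0.40), with Nr4a1 at 256 CPM against 660 CPM and Klf4 at 3025 CPM against 5272 CPM. Whether handling of the tissue had a part in this was not tested.

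**Figure D4:**
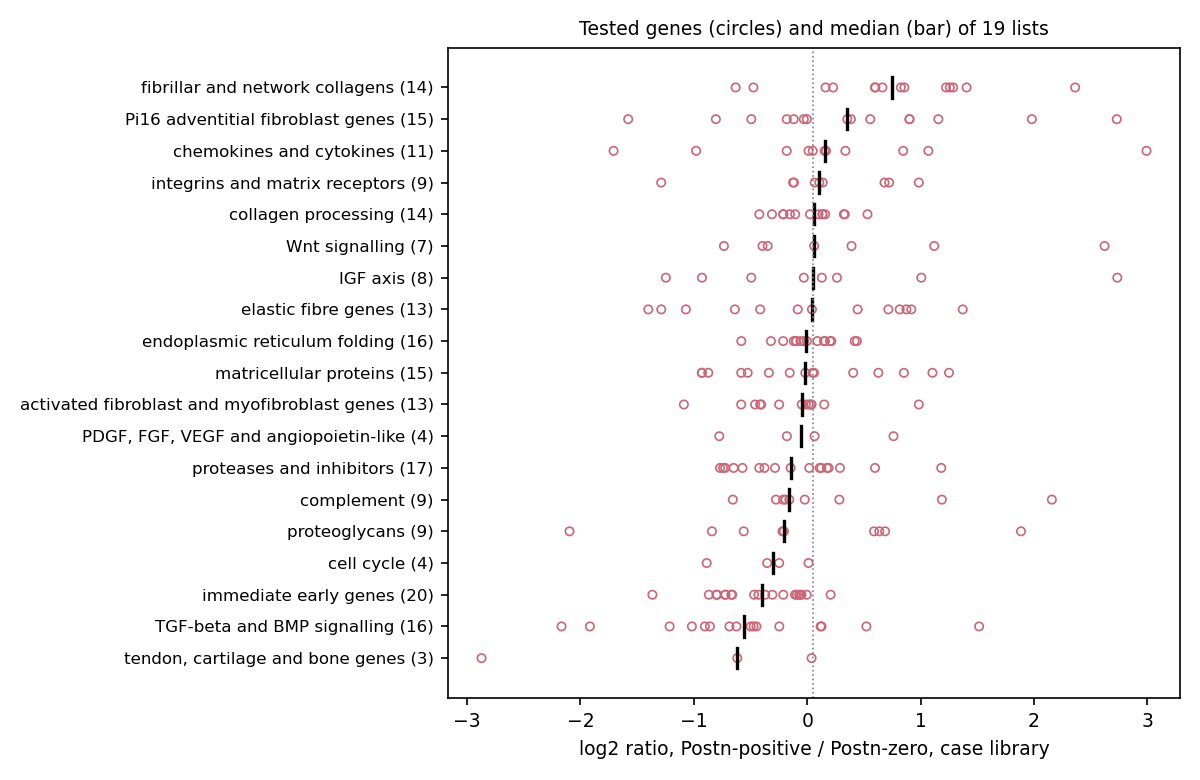
Log2 ratio of Postn-positive over Postn-zero fibroblasts of the case library for each tested gene of 19 gene lists (circles, with the number tested in brackets) and the median of each list (bar); the dotted line is the median of all tested genes, 0.05. Fibrillar and network collagens have the highest median, 0.74, and the spread within most lists is wider than the distance between their medians.

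Pi16 and its associated genes were set side by side. Pi16 was at 382 CPM against 1141 CPM and was found in 34 of 128 Postn-positive cells (26.6%, 19.1 to 35.1%) against 507 of 768 Postn-zero cells (66.0%, 62.5 to 69.4%). At 2000 UMIs per cell the shares were 21.1% and 54.3%. Of the 15 tested genes of the adventitial list, however, 5 were higher and 2 lower, with a median of 0.35, beside 6.6% higher, 8.09% lower and a median of 0.05 over all genes. Dpt, dermatopontin, was at 3446 CPM (3323 to 3573) against 1546 CPM and Procr, the protein C receptor, at 297 CPM against 159 CPM, and Fndc1 and Has2 belong to the same list. Has2 passed the limit of 50 CPM only through the Postn-positive cells. Its place among the higher genes is no support, and no count without it is given. The hyaluronan synthase Has1 was the other lower gene, at 283 CPM against 495 CPM.

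For some genes the difference between Postn-positive and Postn-zero cells was present both with and without Pi16, and for others in 1 of these classes. Fndc1 was at 534 CPM in the 34 Postn-positive cells with Pi16 and 590 CPM in the 94 without, against 76.0 CPM and 112 CPM in Postn-zero cells with and without it. Lpl was at 244 CPM and 195 CPM in the Postn-positive cells, against 9.42 CPM and 26.3 CPM, and Bmp4 at 164 CPM and 79.0 CPM, against 443 CPM and 255 CPM for Bmp4 in Postn-zero cells. Thbs2 differed among cells with Pi16, at 290 CPM (226 to 367) against 67.9 CPM, and so did Cilp, at 151 CPM (106 to 209) against 83.8 CPM, but among cells without Pi16 their intervals overlapped. The 2 fibrillar collagens of the gate differed most among cells without Pi16. With Pi16, Col3a1 was at 19761 CPM against 18811 CPM and Col1a1 at 16467 CPM against 18481 CPM, and without it Col3a1 was at 30639 CPM against 14198 CPM and Col1a1 at 19308 CPM against 11990 CPM. Igfbp3 was at 37.8 CPM in the Postn-positive cells with Pi16 and 227 CPM in those without, and Tnfrsf11b had the opposite order, at 403 CPM and 114 CPM.

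Levels also varied with the amount of Postn in a cell, which is a description and no test. The classes below were cut on the Postn counts that chose the cells. Fndc1, Lpl, Apoe, Bmp4 and Il6 were ranked by their ratios in these same cells, and Lpl passed the limit of 50 CPM only through the Postn-positive cells. The case fibroblasts were set out by 0, 1, 2 to 4, 5 to 15 and 16 to 76 Postn UMIs, which gave 768, 51, 53, 38 and 37 cells with median depths of 5080, 5208, 5009, 5627 and 7825 UMIs. Fndc1 was at 86.6, 269, 377, 554 and 800 CPM in these classes, in that order, and Lpl at 14.4, 67.3, 101, 240 and 296 CPM. Apoe was level at 348 and 330 CPM in the first pair and then stood at 678, 1108 and 1836 CPM. Bmp4 ran the other way, at 387, 289, 152, 118 and 37.0 CPM, and so did Il6, at 472, 313, 222, 110 and 90.8 CPM. These are levels per 1000000 UMIs of a class. The classes were cut on Postn UMIs as sequenced and the last class was the deepest, and the part of depth in these orders was not tested.

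Other genes did not climb steadily above 1 Postn UMI, and Cilp and Prg4 were highest at low counts. Cilp was at 377 CPM (310 to 453) in the 51 cells with 1 Postn UMI and 57.2 CPM (33.3 to 91.5) in the 37 cells with 16 or more, where it was found in 4 cells. Prg4 was at 333 CPM in the class of 2 to 4 and 131 CPM in the class of 16 or more. Igf1 was at 474 CPM in cells without Postn, 874 CPM in cells with 1 Postn UMI and 942 CPM at 16 or more. Dpt was at 1546, 3036 and 3302 CPM in the same classes. Both genes were thus higher at 1 Postn UMI than without Postn. From 1 UMI to 16 or more their intervals overlapped, though Dpt reached 3901 CPM (3686 to 4125) in the class of 2 to 4. The cells with 1 Postn UMI, which the limit left out, thus lay on the side of the Postn-positive cells for Dpt, Igf1, Prg4 and Cilp and near the Postn-zero cells for Apoe. Cxcl9 was below both, at 3.36 CPM (0.0851 to 18.7) from 1 UMI. Those with exactly 1 Postn UMI lie just outside the limit, and the 24 cells with 2 just inside it.

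**Figure D5:**
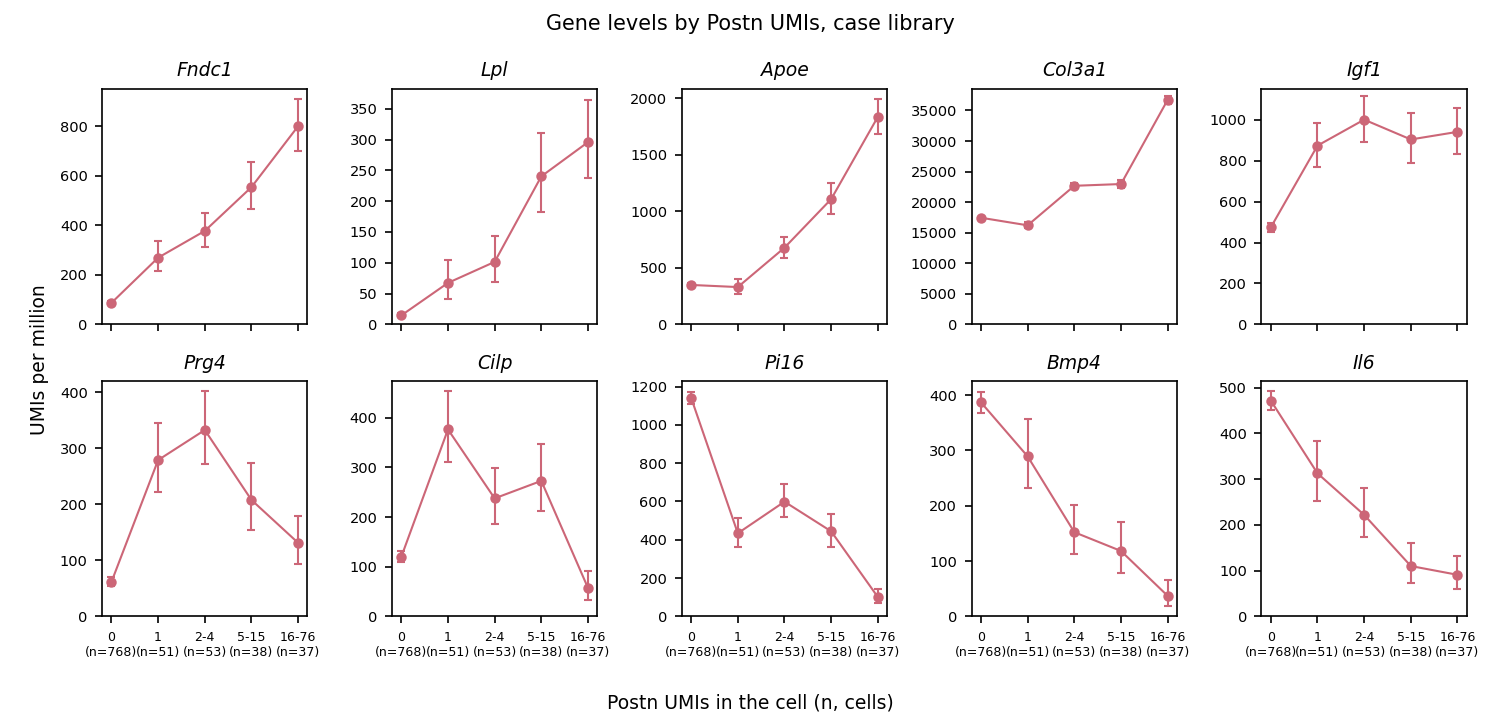
Level of 10 genes in counts per 1000000 UMIs (vertical axes, each from 0) in case fibroblasts with 0, 1, 2 to 4, 5 to 15 and 16 to 76 Postn UMIs (768, 51, 53, 38 and 37 cells), with exact Poisson intervals. Fndc1 goes from 86.6 to 800 and Lpl from 14.4 to 296 across the classes, Bmp4 from 387 to 37.0, while Cilp peaks at 377 in cells with 1 Postn UMI.

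Single cells held few of the leading genes at equal depth. Thinned to 2000 UMIs, a Postn-positive case cell held a median of 4 of the 15 leading genes (range 0 to 9), and a Postn-zero cell a median of 1 (range 0 to 8). Of the 128 cells 7 held none, and 50 held 5 or more, against 16 of 768 Postn-zero cells. The 15 genes were ranked in these same cells, so this describes how the signal was spread over cells and does not test it.

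The 11 control cells were a mixed group. Of these, 8 had Pi16 (72.7%), against 449 of 504 Postn-zero control cells (89.1%). The other 3 had 9.30 to 14.5% mitochondrial UMIs, against 0.796 to 8.72% in the 8 cells with Pi16, while their contractile genes, at 0.247 to 0.477% of UMIs, overlapped with those of the 8, at 0.0310 to 0.373%. These 3 cells held 388 of the 435 UMIs of Ccn3, a matricellular gene, 160 of 169 of Itga8, 88 of 95 of Col18a1, 209 of 279 of Eln and 30 of 41 of the smooth muscle myosin gene Myh11. They had no UMI of Fndc1, Dkk2 or Lpl. The 6 VSMC markers summed to 1757 CPM in the 11 cells, against 842 CPM in Postn-zero control cells, and the endothelial, macrophage and T cell markers had no UMI in them.

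The control cells held 94463 UMIs in all, so that 50 CPM is a handful of UMIs in them. Of 2360 genes tested, 427 (18.1%) were higher and 431 (18.3%) lower than in Postn-zero control cells. In both libraries together 33 of 2016 genes (1.64%) were at least 1.5-fold higher and 57 (2.83%) at least 1.5-fold lower. These counts were not stable, at 8 and 5 with 1 Postn UMI asked for and 13 and 113 with TMM scaling. They were 5 and 125 with the UMIs of each gene's richest cell taken out, which lowers the ratios by construction. The first 3 higher genes were Dkk2, at 95.3 CPM (43.6 to 181) in control Postn-positive cells against 13.1 CPM, Fndc1, at 127 CPM (65.6 to 222) against 52.2 CPM, and Apoe, at 826 CPM (653 to 1031) against 342 CPM. Dkk2 reached the mean of 50 CPM in each library only through its Postn-positive cells, so its place in this order is no support for a difference. Of the 9 Dkk2 UMIs 5 came from 1 cell, and of the 12 Fndc1 UMIs 8 from another. Without these 8 UMIs, the total unchanged, the log2 ratio of Fndc1 was -0.30. The richest cell for Apoe held 42.3% of its UMIs and the richest for Fn1 held 36.9%. Without those UMIs, the total unchanged, the control log2 ratios were 0.48 and 0.26. Among so few cells, keeping the total pushes such ratios down. They do not show that the ratios fall under 1.5-fold without the cell. Fn1, at 1577 CPM against 831 CPM, the leucine-rich repeat gene Lrrn4cl, at 169 CPM against 72.9 CPM with 68.8% of its UMIs in 1 cell, and the aminopeptidase gene Anpep, at 148 CPM against 75.1 CPM, followed the same direction, and so did Pcdh7, Asph, Serpine2, Efemp2, Pfkfb3, Cd55 and Cpe with 7 to 18 control UMIs each. Some genes with so few UMIs, Cpe among them, reached the mean of 50 CPM in the control library only through its Postn-positive cells. Their direction is no support for a difference. For several of the first 15 the control value rested on the 3 cells named above, without which the control log2 ratio went from 4.01 to 0.66 for Col18a1, from 4.37 to 0.56 for Itga8, from 1.70 to 0.21 for Asph, from 1.99 to 0.23 for Cpe, from 1.61 to 0.61 for Pcdh7 and from 1.46 to -1.03 for Serpine2. With the UMIs of the richest cell taken out in the same way, the control log2 ratio was 0.04 for Cd55, 0.50 for Anpep and -0.46 for Lrrn4cl. In the case library Serpine2 turned to -0.28 in thinned cells and -0.24 without Pi16 cells, and Cd55 to -0.70 in thinned cells.

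Of the lower genes in both libraries, Pi16 was at 847 CPM against 2140 CPM, Il6 at 307 CPM against 739 CPM, Cryab, a small heat shock protein, at 148 CPM against 854 CPM and Gdf10 at 21.2 CPM against 132 CPM in the control library. Cdc42ep3, LOC500712, RGD1305645 and AABR07048436.1 were also among the lowest 10, with 4 to 11 control UMIs. Apod, which encodes the lipocalin apolipoprotein D, came first. It had no UMI in the control and 1 in the case Postn-positive cells, but in Postn-zero case cells its 271 CPM came from 2.73% of cells. Of 10 tested collagen genes 2 were higher and 4 lower in the control cells, with a median of -0.43, beside 18.1% higher, 18.3% lower and a median of 0.00 over all genes.

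The last comparison set the Postn-positive cells of the injured artery against those of the control artery. Of 2309 genes 465 (20.1%) were at least 1.5-fold higher and 649 (28.1%) lower in the case cells, against 137 (5.92%) and 338 (14.6%) of 2313 genes between the Postn-zero fibroblasts of the same libraries. The control side of the first comparison is 11 cells and that of the second 504 cells, and the part of this in the larger share was not tested. Under TMM scaling the first comparison gave 692 higher and 329 lower genes, so that more were higher than lower. With the UMIs of each gene's richest cell taken out, the counts were 759 and 203. That step lowers the sums of 11 control cells more than those of 128 case cells. Against Postn-zero cells it moved the median log2 ratio from 0.00 to -0.57 in the control library. In the case library it moved from 0.05 to -0.04. The counts of 759 and 203 were thus shifted by construction. The collagens were again the list with the highest median, at 1.43 (9 of 13 higher, 2 lower, against 20.1% and 28.1% of all genes), beside -0.13 over all genes and -0.08 for collagens between Postn-zero cells. Among collagens, Col5a3 and Col8a1 reached the mean of 50 CPM only through the case cells, and Col1a1 and Col3a1 are gate genes. None of these genes is support for a difference. Col3a1 was at 27623 CPM in case and 6426 CPM (5925 to 6958) in control Postn-positive cells, against 17441 and 17014 CPM in Postn-zero cells. The Postn-positive classes differed in make-up, with Pi16 found in 26.6% of the case and 72.7% of the control cells. In the case cells Col3a1 was at 19761 CPM with Pi16 and 30639 CPM without it.

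Tfpi2, a Kunitz-type protease inhibitor, was at 1003 CPM (937 to 1072) in case and 52.9 CPM (17.2 to 124) in control Postn-positive cells, while Postn-zero cells held 786 and 956 CPM. Itm2a, Has2 and Col5a3 were at 395, 127 and 247 CPM in the case cells and had 3, 1 and 2 UMIs in the control cells. AABR07057190.1, Rab8b, Col8a1, Xrn2, Parp14 and Dnaja2, the others among the 10 highest ratios, had 1 control UMI each, so that their intervals reach from 1.08 to 9.99 on the log2 scale. Of these 10 genes, all but Tfpi2 reached the mean of 50 CPM only through the case cells. Their place in this ranking is no support for a difference. Among the 10 lowest, Spp1, the osteopontin gene, was at 69.9 CPM in case and 910 CPM in control cells, where 1 cell held 86.0% of it, and without the 3 cells lacking Pi16 its log2 ratio turned to 1.31. Igfbp2 had 17 control UMIs, 94.1% of them in 1 cell, and Casq2, Cspg4, Tinagl1, Entpd1 and RGD1562747 had 10 to 21. The remaining 3, AABR07048474.1, LOC259244 and Mup4, belong to the major urinary protein family, whose near-identical copies can share reads, and 1 control cell held 86.3 to 100% of their UMIs. Samd9 had 1 control UMI and likewise reached the mean of 50 CPM only through the case cells. Itga8, Ccn3 and Rgs2 were lower in case Postn-positive cells, with ratios near 0 between Postn-zero cells (0.00, 0.36 and -0.23). Their ratios in Postn-positive cells rested mainly on a few control cells.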

How the data were processed

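Single-cell RNA sequencing (10x Genomics) covered carotid arteries of 2 rats, with 1 library of left (control) and 1 of right, injured arteries (case). The authors deposited raw UMI counts for 32623 genes in 1 matrix, made with Cell Ranger 3.1.0 per the file headers, and the submitters' processing notes name Rnor_6.0 and Seurat. Barcodes were given to libraries by their suffix, since the study states 5656 barcodes for the case and 3321 for the control group. Totals were 28232614 and 24968329 UMIs, and 4659 and 1999 barcodes passed the UMI and mitochondrial limits. A set of 21 barcode sequences occurred in both libraries, none in Postn-positive cells. The deposited features give gene identifiers and symbols (other, no measurement).

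Counts were summed per class and library and given as CPM, with Postn left out of totals. Sums carry exact Poisson, shares Clopper-Pearson and ratios exact conditional binomial intervals (95%). A count of 0 was set to 3 counts. Ratios were computed for genes averaging 50 CPM or more. Genes that could be named were those of 19 lists, the 15 highest and 10 lowest by the smaller ratio of both libraries, the 10 largest differences each way between libraries and the 5 each way that differed most from Postn-zero cells. The 15 highest and 15 lowest of the case library and the classes by Postn UMIs were added after the data were seen. The cells and lists were chosen with earlier results of these data known. Of 418 listed genes 12 were not matched by 1 gene ID and were not analysed here. Steps were tested on simulated data. There were 14 alternatives, and 2 more were added after seeing the data. Tools were Python 3.11.15, numpy 2.4.6, scipy 1.17.1, scanpy 1.11.5 (Scrublet, thinning seed 1), matplotlib 3.10.9 and edgeR 4.0.16 (TMM only). One gene that the naming rule selected is not reported here.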

Additional observations from a re-analysis of the deposited data

Results flagged for a closer look

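For 11 of 187 listed genes tested in both libraries (5.88%) the ratio of Postn-positive to Postn-zero fibroblasts passed 1.5-fold in opposite directions in the 2 libraries, with intervals that exclude equal levels in each. Over all 2016 genes tested in both, 33 (1.64%) did so. The difference between the libraries was not tested, as each group is 1 library. The case log2 ratio minus the control log2 ratio was -2.76 for Fbln5, -2.72 for Fmod, -2.37 for Nr4a1, -2.15 for Eln, -1.98 for Id3, -1.61 for Skil, -1.52 for Smad7 and -1.45 for Col15a1. It was 2.35 for Mmp14, 2.08 for Sfrp4 and 2.07 for Col3a1. The differences of Id3, Skil, Smad7 and Col15a1 turned positive under some of the other settings, as given below. In the control library 1 cell held 71.6% of the Id3, 60.0% of the Skil, 55.9% of the Fmod and 51.6% of the Nr4a1 UMIs of the 11 cells, and the 3 cells without Pi16 held 74.9% of the Eln UMIs.

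Outside the gate, 15.4% (11.0 to 20.8%) of the 227 fibroblasts left out for high Gfpt2 in the case library had at least 2 Postn UMIs, against 2.50% (0.519 to 7.13%) of 120 in the control library.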

How the results depend on the processing

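The share of Postn-positive cells depended on the rule. It was 7.86% in the control and 18.9% in the case library with 1 Postn UMI asked for, 9.08% in the case library with 4, 0.735% in the control library with fibroblast genes at 3% or more, and 4.92% and 24.4% with Pi16 cells left out. The difference was 7.98 points with 4 UMIs, 14.6 with 3% and 19.4 without Pi16 cells. Counts of genes past 1.5-fold moved more. Those higher in both libraries (33) were 8 with 1 Postn UMI, 59 with 4, 52 with thinned cells, 13 with TMM scaling, 85 and 6 with floors of 20 and 200 CPM, and 5 when each gene lost its richest Postn-positive cell, which lowers these sums by construction. Those lower in both (57) were 5, 112, 113 (TMM), 119 and 24 (floors) and 125 (richest cell). Between case and control Postn-positive cells the 465 higher genes were 278 with 1 UMI, 763 without Pi16 cells and 692 with TMM scaling. They were 1029 and 120 with the floors and 759 without richest cells. The 649 lower genes were 329 (TMM), 1350 and 195 (floors) and 203 (richest cell). The 759 and 203 were shifted by construction, since the control sums rest on 11 cells. In the case library alone the floors gave 418 and 31 higher and 359 and 70 lower genes. TMM scaling moved the median log2 ratio of all genes from 0.05 to -0.08 in the case and from 0.00 to -0.36 in the control library. The cause of these changes was otherwise not tested.

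Among single genes, 3 of 735 values in the case, 12 of 399 in the control, 5 of 309 between libraries and 5 of 176 differences changed sign. In the case library these were Serpine2 (-0.28 thinned, -0.24 without Pi16 cells) and Cd55 (-0.70 thinned). In the control library they were Fndc1 (-0.66 thinned, -0.30 without the richest cell), Apoe (-0.13 at 3%, -4.85 without Pi16 cells), Lrrn4cl (-0.91 at 3%, -0.46 without the richest cell), Serpine2 (-1.03 without the 3 cells lacking Pi16, -0.13 without the richest), Cd55 (-0.33 with 1 UMI), Apod (1.26 with 1 UMI), Gdf10 (0.48) and AABR07048436.1 (1.05), both without Pi16 cells. Between libraries they were Dnaja2 (-0.12 with 1 UMI, -0.012 without Pi16 cells), Has2 (-0.22 at 3%, -0.012 without Pi16 cells) and Spp1 (1.31 without the 3 cells). Of the differences, Skil was 0.55 with 4 UMIs, Col15a1 0.16 without the 3 cells, Id3 0.033 with 4 UMIs and 0.19 without Pi16 cells, and Smad7 0.45 thinned. No paired analysis was possible because each group is 1 library and no test was made. The 94463 UMIs of the 11 control cells limit every control value.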

Other observations

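Genes outside the lists and rankings also varied with Postn. These were chosen after their values had been seen. Marcks, a membrane-bound substrate of protein kinase C, was at 276 CPM in case fibroblasts without Postn, 504 CPM in cells with 1 Postn UMI, 780 CPM with 2 to 4, 627 CPM with 5 to 15 and 1029 CPM with 16 or more. Plagl1, an imprinted zinc finger gene, was at 272, 625, 1065, 811 and 632 CPM in the same classes, and Mnda, an interferon-inducible nuclear protein gene, at 146, 266, 482, 526 and 467 CPM. At 2000 UMIs per cell, Plagl1 was detected in 61.7% (52.7 to 70.2%) of Postn-positive and 24.9% (21.8 to 28.1%) of Postn-zero case cells.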
